A study of Homo sapiens with 6 samples.

Results

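The 39 human HOX genes were followed in SW480 cells in which MORC2 had been knocked down. They were taken as every gene of the deposited table named HOX, a cluster letter from A to D and a position number, which gave 39 of 56303 genes. Of the 39, 36 had enough counts to be tested, among 21005 genes tested in all. HOXB1, HOXD4 and HOXD12 did not pass the filter on low counts.

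HOX genes encode homeodomain transcription factors that tell cells where they lie along the body axis. In mammals they stand in 4 clusters, in which every gene is read in the same direction and genes of low position number act toward the head and those of high number toward the tail and the tips of the limbs. Genes of the same number in different clusters are paralogs, descended from 1 ancestral gene, and form 13 paralog groups. The clusters are classical targets of the Polycomb proteins, which keep them silent, and of the Trithorax group, which keeps them active. The adult gut retains a HOX code, with the highest numbers marking its distal end. MORC2 is an ATPase with a CW-type zinc finger that is known for chromatin compaction and gene silencing, in part together with the HUSH complex.

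SW480 is an established line of colorectal cancer cells. Bulk mRNA was sequenced from 3 libraries of cells carrying the non-silencing hairpin shCtrl, whose genotype is labelled WT, and from 3 libraries of cells carrying shMORC2, labelled MORC2 knockdown. Both groups received a hairpin by lentivirus and were selected with puromycin, and the study's methods call the selected lines clonal, so that a difference between lines and an effect of the knockdown cannot be told apart. A single hairpin name is given for the knockdown, and the time after infection is not given in the sources used here. Replicate experiments are stated but not what separated them, so the p-values measure the spread between these libraries, which may be technical.

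The libraries held 42092664 to 43434425 counts each. MORC2 itself had 46.1, 46.4 and 48.8 CPM (counts divided by the scaled library size in units of 1e6) in shCtrl and 35.0, 29.3 and 27.2 CPM in shMORC2 (log2 -0.63, SE 0.10, edgeR adjusted p = 0.000216). An antisense gene, MORC2-AS1, overlaps it. All 12 epithelial markers examined were at 1 CPM or more, with 2 called higher (KRT20 and CDX2) and 3 lower (CEACAM5, ELF3 and LGR5). Of 9 markers of leukocytes, endothelium, fibroblasts and hepatocytes, 4 were, with a summed level of 28.3 to 30.8 CPM in shCtrl and 31.9 to 33.9 CPM in shMORC2. Of the 9, VWF was called higher and ALB lower, and the part of the 9 in the results was not tested. The VWF call was lost in DESeq2 (adjusted p = 0.0531) and in limma on log2(RPKM + 1) or log2(RPKM + 0.1) (adjusted p = 0.204 and 0.215). It was also lost without shCtrl replicate 1 or 2 (edgeR adjusted p = 0.058 and 0.0856) or shMORC2 replicate 2 or 3 (edgeR adjusted p = 0.0548 and 0.1). LGR5 lost its call in limma on log2(RPKM + 1) or log2(RPKM + 0.1) (adjusted p = 0.0662 and 0.062). None of the 9 was at 0 in every library, although PTPRC, which defines leukocytes, had 0 counts in the 3 shCtrl libraries and 0, 4 and 6 counts in shMORC2.

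HOX genes were called higher more often than lower in shMORC2 cells. A gene was called where the edgeR quasi-likelihood test gave a Benjamini-Hochberg adjusted p under 0.05 over all genes tested. Of the 36 HOX genes tested, 18 were called higher and 1, HOXC13, was called lower. Among all genes tested, 39.5% were called, with 19.9% higher and 19.6% lower. The called share of the HOX genes was 52.8%. The median log2 fold change of the 36 HOX genes was 0.36, against -0.01 for all genes tested. In bulk RNA, more cells expressing a gene and more RNA per cell cannot be told apart.

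The 3 shMORC2 values lay outside the range of the 3 shCtrl values for 23 HOX genes, 19 of them above and 4 below. Such a separation was seen in 50.2% of all genes tested, with 25.1% above and 25.1% below. A called rise of at least 1 on the log2 scale was found for 5 HOX genes, HOXA7, HOXD3, HOXD10, HOXD11 and HOXD13, against 4.92% of all genes tested. No HOX gene was called lower by that much, against 2.82% of all genes tested. A fit with the replicate number as a block called 24 HOX genes, 21 higher and 3 lower, against 49.0% of all genes tested, with 24.4% higher and 24.5% lower. No call was lost with the block, and HOXA9, HOXA10, HOXB6, HOXC4 and HOXC6 were added.

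**Figure D1:**
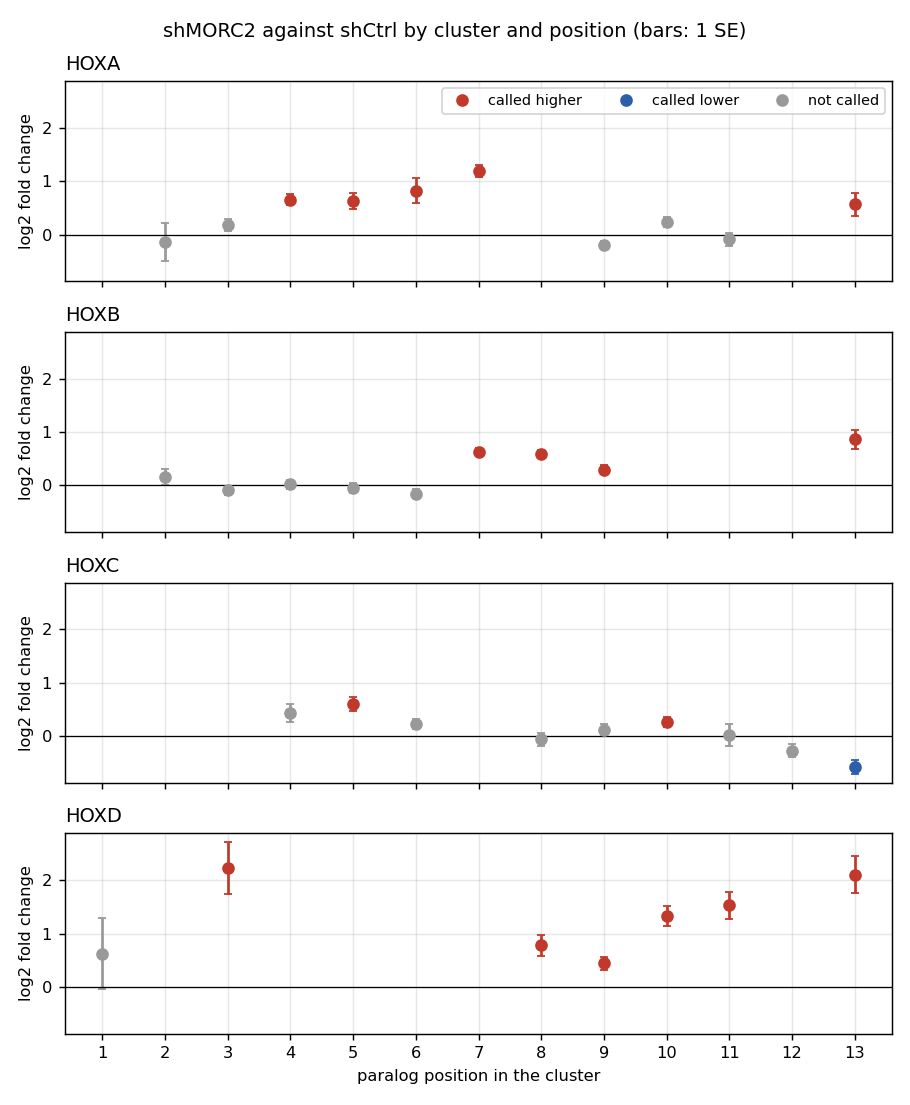
The log2 fold change of shMORC2 against shCtrl (y axis) is plotted for 35 HOX genes by its paralog position (x axis), 1 panel a cluster, with bars of 1 SE and colours for the edgeR call. The HOXD panel holds the largest values, and HOXC13 is the single gene called lower.

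The calls were spread unevenly over the clusters. In HOXD (chr2:176092891-176190907, GRCh38 coordinates as for all positions given here), 6 of 7 tested genes were called higher and the median log2 fold change was 1.33. HOXA (chr7:27092993-27200106) had a median of 0.57. HOXB (chr17:48528526-48729178) had 4 of 9 called higher and a median of 0.16. HOXC (chr12:53938765-54056030) had 2 of 9 called higher, 1 called lower and a median of 0.12. The shares over all genes tested were 19.9% called higher and 19.6% called lower. No test of the difference between clusters was made, and their members share libraries and, in part, reads.

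In level, the order of the clusters was different. HOXB genes together summed to 363 ± 18.2 CPM in shCtrl cells and 396 ± 7.80 CPM in shMORC2 cells (SD, n = 3), which was 60.1% and 57.6% of all HOX counts. HOXC held 124 ± 5.27 and 136 ± 8.44 CPM, and HOXA held 105 ± 0.948 and 134 ± 4.23 CPM. HOXD was the least expressed cluster, with sums of 11.8 ± 0.829 and 21.1 ± 0.994 CPM in the same order, a ratio of 1.78. Over all 39 genes the sums were 604 ± 21.8 and 688 ± 12.8 CPM. Reads in exons that 2 HOX genes share can enter these sums more than once.

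Per length, in the authors' RPKM (reads per kilobase of exon, scaled to the library size), HOXB6 was the highest HOX gene of shCtrl cells, at 46.0 ± 1.89 (SD, n = 3). HOXB7 followed at 28.5 ± 1.64 RPKM, HOXC10 at 23.7 ± 0.733 RPKM, HOXB8 at 16 ± 0.306 RPKM and HOXB9 at 14 ± 1.23 RPKM. The steps from HOXB6 to HOXB7 and from HOXB7 to HOXC10 exceeded these SDs. HOXA9 (11.2 ± 0.345 RPKM) and HOXB3 (10.5 ± 1.0 RPKM) lay within their spread of each other. The highest gene of the HOXD cluster was HOXD9, at 3.85 ± 0.553 RPKM. The 18 genes called higher had a median shCtrl level of 4.48 CPM, and the 17 tested genes without a call had 10.3 CPM. For the 5 genes that rose by at least 1 on the log2 scale, the median shCtrl level was 0.660 CPM.

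**Figure D2:**
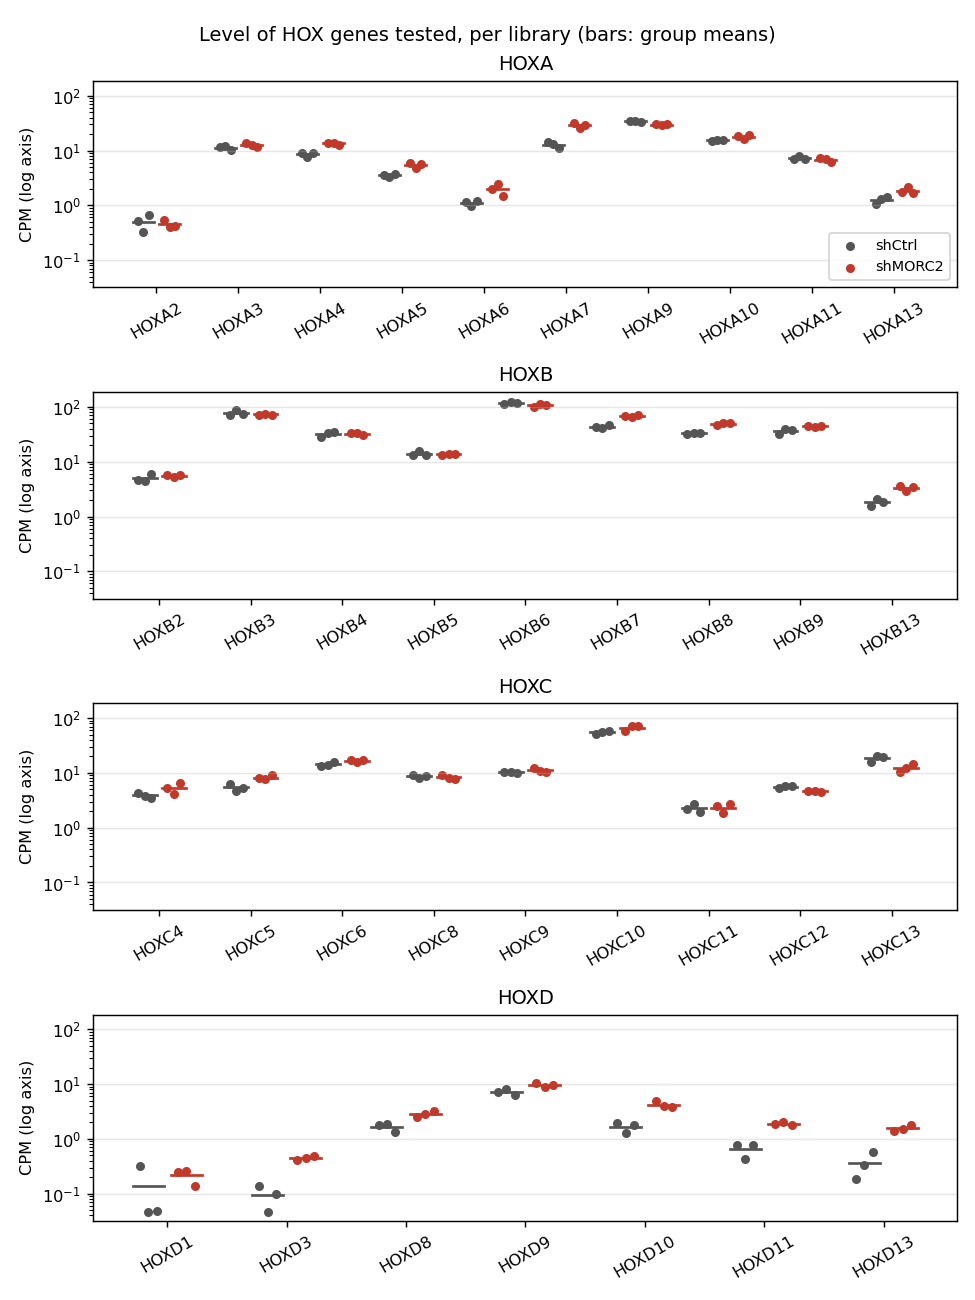
Each point is 1 library and each bar a group mean, in CPM on a log axis (y axis), for 35 HOX genes, grouped by cluster (x axis). HOXB6 is the highest gene at over 100 CPM in all 6 libraries, and most HOXD genes lie under 10 CPM.

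The HOXD cluster patterns the limbs, the genitalia and the end of the gut. HOXD13, the last gene of the cluster, is needed for digits and for the anal sphincter. It had 8, 14 and 24 counts in shCtrl and 62, 63 and 76 counts in shMORC2. Every shMORC2 value was above every shCtrl value, and the rise was 4.28-fold (log2 2.10, SE 0.34, edgeR adjusted p = 0.00039). The shCtrl values spread widely, from 0.183 to 0.583 CPM.

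HOXD11, which shapes the forearm together with HOXA11, had 34, 18 and 32 counts in shCtrl and 84, 85 and 76 counts in shMORC2. The groups did not overlap, and the rise was 2.88-fold (log2 1.53, SE 0.26, edgeR adjusted p = 0.000489). HOXD10, which acts in the hind limb and in lumbar motor neurons, had 85, 55 and 74 counts in shCtrl and 215, 163 and 165 counts in shMORC2. Its rise was 2.51-fold (log2 1.33, SE 0.19, edgeR adjusted p = 0.000132), again without overlap. HOXD10 and HOXD11 share 452 exonic bases on the same strand, 16.8% of the exons of HOXD10 and 21.4% of those of HOXD11, so their values are not separate in full.

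HOXD9 was the most expressed HOXD gene and changed least among the called ones. Its counts were 319, 340 and 255 in shCtrl and 465, 371 and 418 in shMORC2, a 1.36-fold rise (log2 0.44, SE 0.12, edgeR adjusted p = 0.0127). All shMORC2 values were above all shCtrl values, but without shCtrl replicate 3, the lowest control, the log2 value was 0.35 and the call was lost (edgeR adjusted p = 0.0661). HOXD8, its neighbour toward the low-numbered end, had 80, 78 and 56 counts in shCtrl and 113, 118 and 139 counts in shMORC2. It rose 1.71-fold (log2 0.78, SE 0.19, edgeR adjusted p = 0.00597), without overlap of the groups.

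The low-numbered HOXD genes were close to the detection limit. HOXD3 had 6, 2 and 4 counts in shCtrl and 18, 19 and 21 counts in shMORC2, without overlap, and was called higher (edgeR adjusted p = 0.00259). AC009336.19, a gene model on the same strand, covers 62.2% of its exonic bases. HOXD-AS2, on the opposite strand and called higher, covers 10.7% of them, so the value of HOXD3 is not separate in full. HOXD1 had 14, 2 and 2 counts in shCtrl and 11, 11 and 6 counts in shMORC2, which overlapped, and was not called. Without shCtrl replicate 1, the library with 14 counts, HOXD1 was called higher (edgeR adjusted p = 0.0457). HOXD4, with 2, 2 and 2 counts in shCtrl and 5, 2 and 6 in shMORC2, was not tested. HOXD12 had 0, 2 and 0 counts in shCtrl and 0 counts in every shMORC2 library, which allows up to 3 counts in each. These limits cover counting error only.

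The promoters of the 3 HOXD genes that rose together at the high-numbered end are shown as the letters just before and at their starts. They come from RefSeq on GRCh38.p14, on the plus strand, from 250 bases before a transcript start to 50 bases after it. Capitals mark the motif matches described next. The windows are chr2:176092471-176092770 for HOXD13, chr2:176107030-176107329 for HOXD11 and chr2:176116528-176116827 for HOXD10.
HOXD13: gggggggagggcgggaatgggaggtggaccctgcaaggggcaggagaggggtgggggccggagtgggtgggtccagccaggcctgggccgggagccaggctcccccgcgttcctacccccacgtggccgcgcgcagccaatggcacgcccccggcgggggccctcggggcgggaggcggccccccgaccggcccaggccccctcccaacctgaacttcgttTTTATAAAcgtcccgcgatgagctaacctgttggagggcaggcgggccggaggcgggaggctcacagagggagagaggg
HOXD11: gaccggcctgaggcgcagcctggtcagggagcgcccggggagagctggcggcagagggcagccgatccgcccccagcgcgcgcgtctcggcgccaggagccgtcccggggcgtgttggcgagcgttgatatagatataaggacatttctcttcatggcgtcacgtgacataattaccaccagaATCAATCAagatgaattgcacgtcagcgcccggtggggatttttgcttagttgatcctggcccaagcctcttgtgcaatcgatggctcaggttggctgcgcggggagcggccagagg
HOXD10: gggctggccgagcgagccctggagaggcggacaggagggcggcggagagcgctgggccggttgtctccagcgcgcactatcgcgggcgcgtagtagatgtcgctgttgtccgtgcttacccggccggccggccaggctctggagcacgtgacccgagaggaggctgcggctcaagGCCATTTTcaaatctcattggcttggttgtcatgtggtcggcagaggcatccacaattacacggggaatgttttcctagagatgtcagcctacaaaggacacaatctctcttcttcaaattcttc

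The motifs searched on both strands were TATAAA, the core of the TATA box, TGATNNAT, a composite site of PBX and HOX proteins, TTTATNG, which CDX proteins bind, and GCCATNTT, the core of the YY1 site. TTTATNG can overlap TATAAA. The HOXD13 window holds 2 overlapping TATAAA matches, 1 on each strand. The HOXD11 window has a PBX-HOX composite and the HOXD10 window a YY1 motif, so that none of the 4 motifs is common to all 3. Of 35116 promoters in the RefSeq table, 11.5% hold TATAAA, 7.40% the PBX-HOX composite, 9.73% the CDX motif and 6.58% the YY1 motif. The table gave promoters for 20 of the 39 HOX genes, in 26 distinct windows, of which 7 belong to HOXA3 and 1 to both HOXC4 and HOXC5. Of the 26, 5, 3, 6 and 5 hold the motifs in that order. The distinct HOX windows had a median of 22.5 CpG dinucleotides, against 14 over all promoters, and a median observed-to-expected CpG ratio of 0.855 against 0.579. A match is a description of letters, not evidence of binding.

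In the HOXA cluster HOXA4, HOXA5, HOXA6, HOXA7 and HOXA13 were called higher. HOXA7, a trunk gene, changed most. It had 614, 546 and 458 counts in shCtrl and 1396, 1079 and 1262 counts in shMORC2, a 2.29-fold rise (log2 1.19, SE 0.11, edgeR adjusted p = 3.42e-06). The groups stood far apart, at 11.1 to 14 CPM and 25.9 to 31.5 CPM. However, 1507 of its 2411 exonic bases are also exons of HOXA-AS3 on the opposite strand. HOXA-AS3 had 1.04 to 1.17 times the counts of HOXA7 in every library and rose by a log2 value of 1.10 (SE 0.10, edgeR adjusted p = 4.29e-06), and the 2 genes cannot be told apart here.

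The promoter of HOXA7 (chr7:27156626-27156925, minus strand, RefSeq on GRCh38.p14) is given because this gene rose most outside HOXD. It holds none of the 4 motifs and 31 CpG dinucleotides.
HOXA7: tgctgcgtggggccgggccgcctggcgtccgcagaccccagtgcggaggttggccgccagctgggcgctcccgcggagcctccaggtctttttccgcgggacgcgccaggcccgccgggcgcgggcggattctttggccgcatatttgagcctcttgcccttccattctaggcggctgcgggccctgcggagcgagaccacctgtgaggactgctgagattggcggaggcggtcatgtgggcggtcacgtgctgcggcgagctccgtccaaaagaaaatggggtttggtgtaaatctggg

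HOXA5, which is needed for lung and phrenic motor neuron development, shares no exonic base with another gene. It had 159, 138 and 151 counts in shCtrl and 263, 199 and 240 counts in shMORC2, and rose 1.55-fold (log2 0.63, SE 0.14, edgeR adjusted p = 0.00341) without overlap. HOXA4 had 394, 328 and 364 counts in shCtrl and 614, 569 and 545 counts in shMORC2. It rose 1.57-fold (log2 0.66, SE 0.10, edgeR adjusted p = 0.000306), with all shMORC2 values on top, and shares 47.3% of its exonic bases with other gene models. RP1-170O19.22, a same-strand model that itself rose (log2 0.68, SE 0.11, edgeR adjusted p = 0.000313), covers 31.0% of the exonic bases of HOXA4. The value of HOXA4 is therefore not separate in full.

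The calls of HOXA6 and HOXA13 rested on single libraries. HOXA6 had 51, 41 and 49 counts in shCtrl and 88, 100 and 64 counts in shMORC2, a 1.77-fold rise without overlap (log2 0.82, SE 0.23, edgeR adjusted p = 0.0126). HOXA-AS3, the antisense gene that rose, covers 505 of the exonic bases of HOXA6 (39.3%) and had 535 to 1457 counts, so the rise of HOXA6 cannot be told apart from that of HOXA-AS3. The HOXA6 call was lost without shCtrl replicate 2 (log2 0.73, edgeR adjusted p = 0.0543) and without shMORC2 replicate 2 (log2 0.66, edgeR adjusted p = 0.0678). HOXA13, which marks the hindgut and patterns the hand and the genital tract, had 47, 54 and 58 counts in shCtrl and 78, 88 and 72 counts in shMORC2. The groups of HOXA13 did not overlap, and the rise was 1.48-fold (log2 0.57, SE 0.21, edgeR adjusted p = 0.0487). Its call did not hold when any one of the 6 libraries was left out. The edgeR adjusted p then lay between 0.0579 without shMORC2 replicate 1 and 0.159 without shMORC2 replicate 2.

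HOXA9, a gene of blood progenitors and leukaemia and the highest HOXA gene of shCtrl cells, had 34.1, 33.9 and 33.7 CPM in shCtrl and 29.8, 29.1 and 30.1 CPM in shMORC2. All 3 shMORC2 values were below all shCtrl values, with a log2 value of -0.19 (SE 0.07, edgeR adjusted p = 0.0573), and the replicate block called it lower (edgeR adjusted p = 0.0243). HOXA10-HOXA9, a same-strand gene model, covers 13.1% of the exonic bases of HOXA9, so the value of HOXA9 is not separate in full. That model had a log2 value of 0.22 (SE 0.09, edgeR adjusted p = 0.0648) and was called higher with the block (edgeR adjusted p = 0.0336). HOXA10, a uterine gene, had 15.3 ± 0.277 CPM in shCtrl and in shMORC2 17.9 ± 1.65 CPM (SD, n = 3), with a log2 value of 0.23 (SE 0.10). It was called with the block (edgeR adjusted p = 0.0285) and without shMORC2 replicate 2, its lowest shMORC2 library (log2 0.31, edgeR adjusted p = 0.0382). HOXA3 (log2 0.18, SE 0.11), HOXA11 (log2 -0.09, SE 0.12) and HOXA2 (log2 -0.14, SE 0.36) had overlapping groups. HOXA2 had only 14 to 27 counts a library.

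In the HOXB cluster the called genes were those from HOXB7 onward. The 5 tested genes from HOXB2 to HOXB6 had log2 values of -0.15 to 0.16 and no call, while the 4 genes from HOXB7 to HOXB13 were all called higher. None of these 4 shares an exonic base with another gene of the table. HOXB7, which is often raised in tumours, had 1902, 1715 and 1914 counts in shCtrl and 3008, 2670 and 2974 counts in shMORC2. It rose 1.55-fold (log2 0.63, SE 0.08, edgeR adjusted p = 5.22e-05), and the groups did not overlap.

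HOXB8, a gene of myeloid cells and microglia, had 1431, 1385 and 1356 counts in shCtrl and 2045, 2104 and 2175 counts in shMORC2. The rise was 1.5-fold (log2 0.59, SE 0.08, edgeR adjusted p = 6.81e-05), with a tight shCtrl group of 32.6 to 33.0 CPM. HOXB9 had 1402, 1645 and 1549 counts in shCtrl and 2010, 1779 and 1927 counts in shMORC2, a smaller rise of 1.23-fold (log2 0.30, SE 0.09, edgeR adjusted p = 0.0163). The groups of HOXB9 did not overlap, but its call was lost without shCtrl replicate 1, the lowest control (log2 0.21, edgeR adjusted p = 0.0688), and without shMORC2 replicate 3 (log2 0.29, edgeR adjusted p = 0.0567). HOXB13, a gene of the prostate and the hindgut, had 69, 89 and 75 counts in shCtrl and 158, 122 and 149 counts in shMORC2. It rose 1.82-fold (log2 0.86, SE 0.18, edgeR adjusted p = 0.00207) without overlap.

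HOXB6, the most abundant HOX gene, had 114, 125 and 119 CPM in shCtrl and 101, 112 and 110 CPM in shMORC2. The groups did not overlap, yet the log2 value of -0.15 (SE 0.08) was not called (edgeR adjusted p = 0.127), and it was called lower with the block (edgeR adjusted p = 0.03). HOXB3 (77.9 ± 7.45 and 73.1 ± 1.33 CPM), HOXB4 (32.0 ± 2.99 and 32.4 ± 0.954 CPM), HOXB5 (14 ± 1.2 and 13.6 ± 0.408 CPM) and HOXB2 (5.00 ± 0.815 and 5.57 ± 0.184 CPM) had overlapping groups. These genes act in the hindbrain, in blood stem cells and in the enteric nervous system. HOXB1, a hindbrain gene, had 0, 4 and 2 counts in shCtrl and 0, 2 and 2 counts in shMORC2 and was not tested.

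In the fit without the block, HOXC was the only cluster with calls in both directions. With the block, HOXA and HOXB each had 1 gene called lower as well, HOXA9 and HOXB6. HOXC13, which controls hair and nail keratins, was the single HOX gene called lower in the fit without the block. It had 678, 855 and 813 counts in shCtrl and 462, 521 and 608 counts in shMORC2, and fell 1.49-fold (log2 -0.58, SE 0.13, edgeR adjusted p = 0.00371). The groups did not overlap, and the call held in all 13 alternative fits. HOXC12, its neighbour, which is active in hair follicles, had 5.20, 5.70 and 5.83 CPM in shCtrl and 4.58, 4.76 and 4.56 CPM in shMORC2. Its groups did not overlap either, but the log2 value of -0.27 (SE 0.13) was not called (edgeR adjusted p = 0.106).

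HOXC5, which acts with HOXA5 in phrenic motor neurons, had 274, 200 and 219 counts in shCtrl and 353, 318 and 387 counts in shMORC2. It rose 1.51-fold (log2 0.60, SE 0.13, edgeR adjusted p = 0.0034) without overlap, though RP11-834C11.14, a same-strand gene model that itself rose (log2 0.58, SE 0.13, edgeR adjusted p = 0.00305), covers 59.9% of its exonic bases. HOXC10, a gene of the lumbar region and the most expressed of its cluster, had 2278, 2373 and 2362 counts in shCtrl and 2528, 3003 and 3018 counts in shMORC2. In CPM the groups touched, since shMORC2 replicate 1 at 57 lay below shCtrl replicate 3 at 57.4. The rise of 1.21-fold (log2 0.27, SE 0.09, edgeR adjusted p = 0.0345) lost its call without each shCtrl replicate (edgeR adjusted p = 0.0917, 0.0753 and 0.0517 for replicates 1, 2 and 3). It was also lost without shMORC2 replicate 2 (edgeR adjusted p = 0.152) or 3 (edgeR adjusted p = 0.132).

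HOXC4 and HOXC6, which share 484 exonic bases, were not called. HOXC4 had 3.92 ± 0.422 CPM in shCtrl and in shMORC2 5.29 ± 1.26 CPM (SD, n = 3), with a log2 value of 0.43 (SE 0.18, edgeR adjusted p = 0.0662). It was called with the block (edgeR adjusted p = 0.0204), without shCtrl replicate 1 (log2 0.52, edgeR adjusted p = 0.0437) and without shMORC2 replicate 2 (log2 0.59, edgeR adjusted p = 0.0194). HOXC6 had 14.3 ± 1.23 and 16.8 ± 0.871 CPM (log2 0.23, SE 0.10, edgeR adjusted p = 0.0777) and was called with the block (edgeR adjusted p = 0.0314). HOXC8 (log2 -0.06, SE 0.12), HOXC9 (log2 0.12, SE 0.10) and HOXC11 (log2 0.02, SE 0.21), all genes of trunk and limb motor neurons, had overlapping groups.

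Read across the clusters by paralog position, the median log2 value was 0.31 at positions 1 to 4, 0.60 at positions 5 to 8 and 0.27 at positions 9 to 13, against -0.01 for all genes tested. Paralogs did not move alike. In paralog group 13, which patterns the ends of the body, HOXA13, HOXB13 and HOXD13 were called higher and HOXC13 lower, with log2 values from -0.58 to 2.10. Both genes of group 7, HOXA7 and HOXB7, were called higher. Neither tested gene of group 2 was called, and in group 11 HOXD11 was called while HOXA11 and HOXC11 had log2 values of -0.09 and 0.02. The difference between paralogs of a group was not tested.

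**Figure D3:**
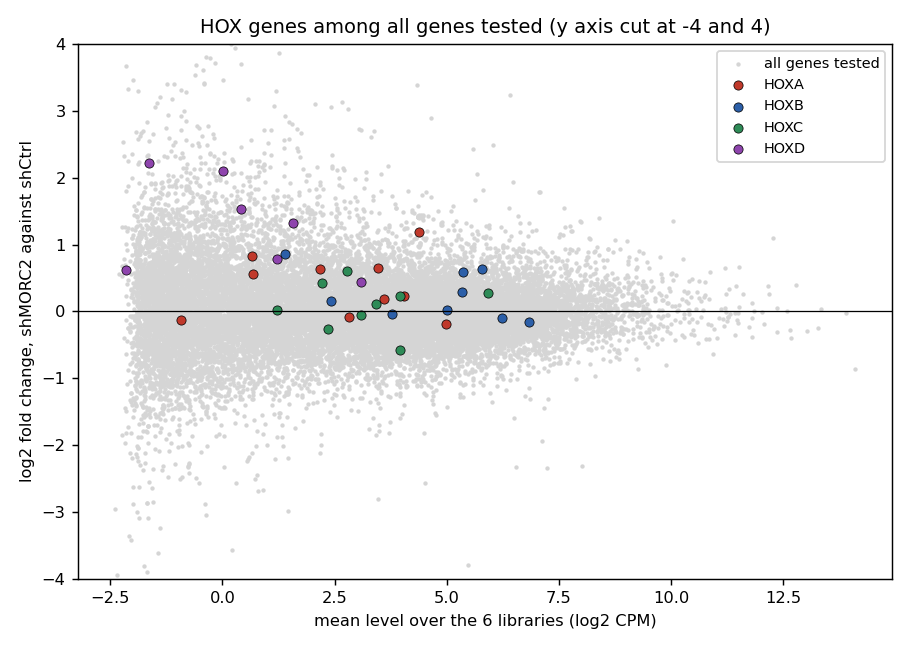
The log2 fold change of shMORC2 against shCtrl (y axis, a few grey points beyond its limits not drawn) is plotted against the mean level over the 6 libraries in log2 CPM (x axis) for all 21005 genes tested in grey and for 35 HOX genes in colours by cluster. Of the 7 HOXD genes, 4 lie above 1 at low levels, and HOXA7 is the only gene of the other clusters above 1.

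Exons of neighbouring genes overlap in the clusters. Of the 39 HOX genes, 24 share exonic bases with another gene of the table. The 15 that share none comprise 13 tested genes, of which 9 were called higher and none lower with a median log2 value of 0.57. These 9 are HOXA5, HOXA13, HOXB7, HOXB8, HOXB9, HOXB13, HOXD8, HOXD9 and HOXD13. Of the 23 tested genes with shared bases, 9 were called higher and 1 lower, with a median of 0.23. The shares over all genes tested were 19.9% called higher and 19.6% called lower.

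Whether reads were counted by strand was examined with genes that lie wholly inside an exon of a well-expressed gene on the other strand. Over the whole table there were 38 such genes of more than 200 bases, and 22 of them had at least 0.25 of the level per kilobase of that gene. A HOX gene and its antisense partner therefore cannot be told apart where they share exons. This touches HOXA6 and HOXA7, which share exons with HOXA-AS3, HOXA10, whose antisense gene HOXA10-AS had 1.17 to 1.26 times its counts, and HOXA11, where HOXA11-AS had 0.799 to 0.996 times its counts. It also touches HOXD3, where HOXD-AS2 covers 10.7% of the exonic bases, and HOXD1, where RP11-387A1.6 covers 50.1%. Opposite-strand genes cover 14.5% of HOXA4 (HOXA-AS2), 13.9% of HOXA9 (HOXA10-AS) and 16.3% of HOXB6 (HOXB-AS3). Other HOX genes, among them HOXA3 and HOXC13, share bases with opposite-strand genes too.

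The clusters also hold noncoding and antisense genes. Of 18 tested genes of this kind, 7 were called higher and 2 lower, against 19.9% and 19.6% of all genes tested. The median log2 value of the 18 was 0.29. HAGLR, a long noncoding gene beside HOXD1, had 80, 74 and 73 counts in shCtrl and 227, 215 and 200 counts in shMORC2. It rose 2.80-fold (log2 1.48, SE 0.15, edgeR adjusted p = 9.49e-06), without overlap. Its neighbour HAGLROS had 25, 21 and 23 counts in shCtrl and 65, 50 and 77 counts in shMORC2 (log2 1.46, SE 0.27, edgeR adjusted p = 0.000845). HOXD-AS2 had 6, 7 and 14 counts in shCtrl and 32, 20 and 23 counts in shMORC2 (log2 1.44, SE 0.43, edgeR adjusted p = 0.0167). All 3 tested genes inside HOXD other than the HOX genes were therefore called higher, with a median log2 value of 1.46. HOXD-AS2 lost its call without shCtrl replicate 1 (edgeR adjusted p = 0.0638), shCtrl replicate 2 (edgeR adjusted p = 0.0706) or shMORC2 replicate 1 (edgeR adjusted p = 0.0611). HOXD-AS2 shares 379 exonic bases with HOXD3 on the opposite strand, so their values are not separate in full.

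HOTTIP, which starts inside the HOXA13 gene on the other strand and is known for keeping that end of HOXA active, had 2, 14 and 8 counts in shCtrl and 16, 26 and 28 counts in shMORC2. The groups did not overlap (log2 1.52, SE 0.52, edgeR adjusted p = 0.0345). HOTTIP lost its call without shCtrl replicate 1 (log2 1.04, edgeR adjusted p = 0.108) or 3 (edgeR adjusted p = 0.0765), and without shMORC2 replicate 2 (edgeR adjusted p = 0.107) or 3 (edgeR adjusted p = 0.124). DESeq2 did not call HOTTIP either (adjusted p = 0.0625). The 2 genes called lower were HOXB-AS2 (log2 -0.95, SE 0.35, edgeR adjusted p = 0.0455) and HOXC-AS2 (log2 -0.44, SE 0.13, edgeR adjusted p = 0.0133). HOXB-AS2 lost its call without shCtrl replicate 2 (log2 -0.63, edgeR adjusted p = 0.242) or 3 (edgeR adjusted p = 0.0724), without shMORC2 replicate 1, 2 or 3 (edgeR adjusted p = 0.0948, 0.089 and 0.125) and in DESeq2 (adjusted p = 0.117) and limma on log2(RPKM + 1) (adjusted p = 0.0616). HOXC-AS2 lost its call without shCtrl replicate 2 (edgeR adjusted p = 0.0545) or shMORC2 replicate 2 (edgeR adjusted p = 0.0606). Counting every gene that overlaps the span of a cluster, 38 others were tested, with a median of 0.38. Of the 38, 14 were called higher and 2 lower, against 19.9% and 19.6% of all genes tested. The 38 are not independent. Those called higher include HOTAIRM1 and, within its span, HOTAIRM1_1, HOTAIRM1_4 and HOTAIRM1_5, and HOTAIR_3, whose 97 exonic bases all lie in HOTAIR. DESeq2 did not call HOTAIRM1_1 (adjusted p = 0.0702) or HOTAIRM1_4 (adjusted p = 0.109). Each of HOTAIRM1, HOTAIRM1_1, HOTAIRM1_4, HOTAIRM1_5 and HOTAIR_3 lost its call in at least 1 fit that left out a library. HOXA-AS3 and RP1-170O19.22, also called higher, share exons with HOX genes. The median was 0.56 inside HOXA, -0.10 inside HOXB and 0.11 inside HOXC.

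Outside the clusters, within 500 kb on either side, 55 of 126 genes were tested, with a median log2 value of 0.14. Of the 55, 18 were called higher and 4 lower, against 19.9% and 19.6% of all genes tested. Around HOXD, 1 of 5 tested neighbours was called. This was AC016739.2, 10001 bases beyond HOXD1, with 232, 228 and 220 counts in shCtrl and 295, 260 and 332 counts in shMORC2 (log2 0.37, SE 0.13, edgeR adjusted p = 0.0333). It lost its call without any of the 3 shCtrl replicates (edgeR adjusted p = 0.0673, 0.0759 and 0.08) and without shMORC2 replicate 3 (edgeR adjusted p = 0.147). DESeq2 did not call AC016739.2 either (adjusted p = 0.0627). On the other side KIAA1715, 90052 bases beyond HOXD13, was not called (log2 0.11, SE 0.10). The log2 values of the 5 HOXD neighbours ran from -0.05 to 0.37, below those of all 7 tested HOXD genes, which ran from 0.44 to 2.23.

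The nearest tested genes beside HOXA were both called higher. SKAP2, an adaptor of immune receptor signalling 97754 bases away on the low-numbered side, had 2422, 2405 and 2348 counts in shCtrl and 4181, 3968 and 3977 counts in shMORC2 (log2 0.74, SE 0.07, edgeR adjusted p = 5.04e-06). EIF4HP1, a pseudogene 258057 bases away on the HOXA13 side, had a log2 value of 0.57 (SE 0.14, edgeR adjusted p = 0.00707). Beside HOXB, RP11-433M22.2, 62486 bases beyond HOXB1, rose by a log2 value of 1.24 (SE 0.15, edgeR adjusted p = 3.96e-05), and TTLL6, 33057 bases beyond HOXB13, was not called (log2 0.44, SE 0.40). PHOSPHO1, 494184 bases beyond HOXB13, rose by 1.36 (SE 0.29, edgeR adjusted p = 0.00218).

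Beside HOXC, 4 of 11 tested genes on the HOXC13 side were called higher, and on the HOXC4 side 4 of 15 were called higher and 3 lower. The shares over all genes tested were 19.9% higher and 19.6% lower. CALCOCO1, 211020 bases beyond HOXC13, rose by a log2 value of 0.39 (SE 0.09, edgeR adjusted p = 0.00441), and on the HOXC4 side FLJ12825, 2224 bases away, was not called (log2 -0.29, SE 0.25). Farther on that side RP11-834C11.4 had 95, 85 and 79 counts in shCtrl and 36, 26 and 26 counts in shMORC2 and fell (log2 -1.57, SE 0.23, edgeR adjusted p = 0.000147). RP11-834C11.7 had 11 counts in each shCtrl library and 3, 1 and 5 counts in shMORC2 (edgeR adjusted p = 0.0208). Its call was lost without shCtrl replicate 2 or 3 (edgeR adjusted p = 0.0578 and 0.061) and without shMORC2 replicate 1 or 2 (edgeR adjusted p = 0.0556 and 0.0902). It was also lost in DESeq2 (adjusted p = 0.102) and without the filter on low counts (edgeR adjusted p = 0.0625). Limma did not call it on log2(RPKM + 1) (adjusted p = 0.0528) or log2(RPKM + 0.1) (adjusted p = 0.0545).

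**Figure D4:**
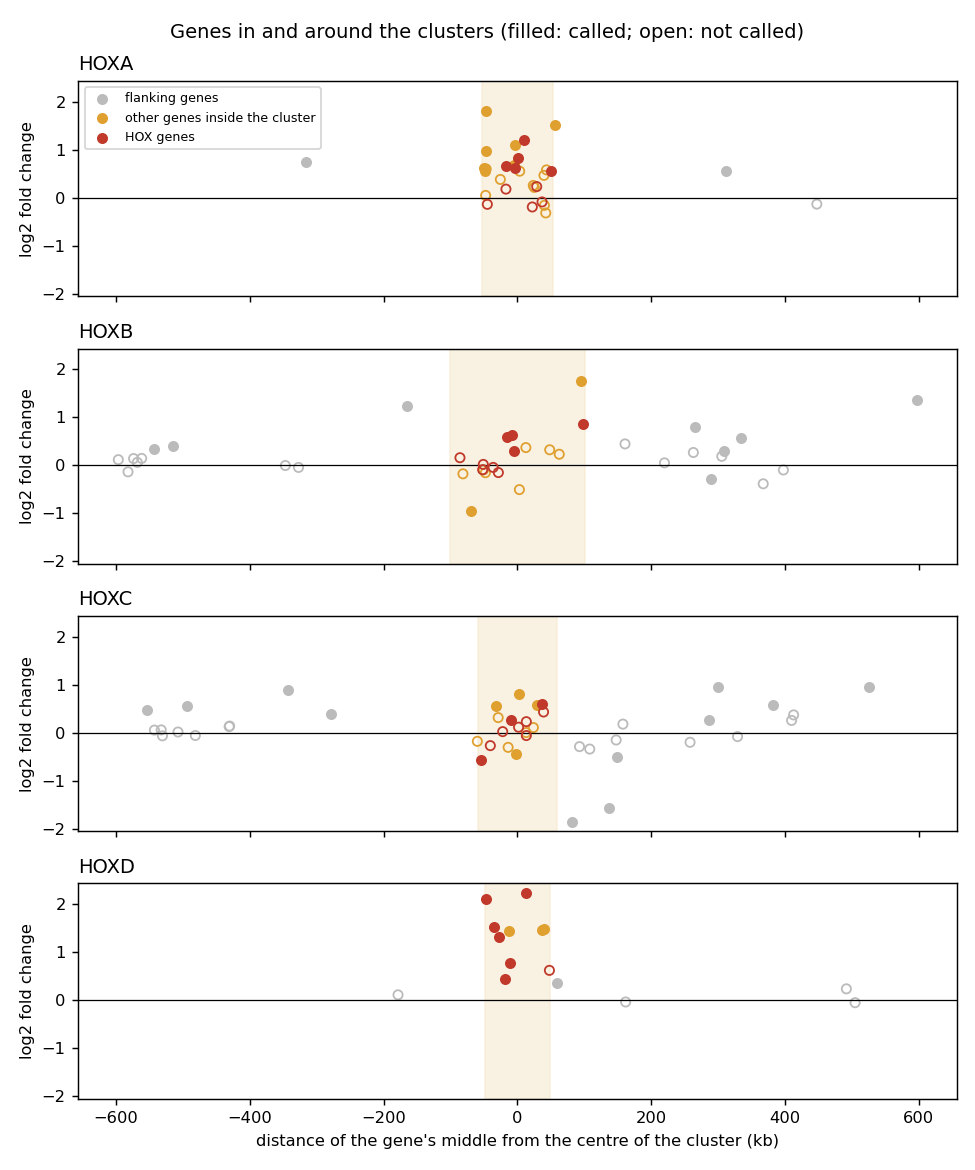
The log2 fold change of shMORC2 against shCtrl (y axis) is plotted against the distance of a gene's middle from the centre of its cluster in kb (x axis), with the cluster shaded, filled points for called genes and open points for genes without a call. In the HOXD panel the genes inside the cluster stand above the 5 flanking genes tested.

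HOX proteins bind DNA together with TALE homeodomain partners of the PBX, MEIS and PKNOX families. Of 8 such genes tested, 2 were called higher and 1 lower, against 19.9% and 19.6% of all genes tested. MEIS2 had 471, 381 and 413 counts in shCtrl and 311, 285 and 298 counts in shMORC2 and fell (log2 -0.51, SE 0.11, edgeR adjusted p = 0.00267). Its groups did not overlap. MEIS3 was called higher with overlapping groups (log2 0.45, SE 0.14, edgeR adjusted p = 0.0207), but not without shCtrl replicate 1 (edgeR adjusted p = 0.0639) or shMORC2 replicates 2 or 3 (edgeR adjusted p = 0.117 and 0.0764). Limma did not call MEIS3 on log2(RPKM + 1) (adjusted p = 0.0774) or on log2(RPKM + 0.1) (adjusted p = 0.0766).

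Of the genes that regulate HOX clusters, CDX2, the caudal-type factor of the intestine, had 753, 613 and 579 counts in shCtrl and 739, 881 and 1093 counts in shMORC2. The groups overlapped, and it was called higher (log2 0.47, SE 0.14, edgeR adjusted p = 0.0158). The CDX2 call was lost without shCtrl replicate 2 or 3 (edgeR adjusted p = 0.0648 and 0.0576) or shMORC2 replicate 3 (edgeR adjusted p = 0.0968). It was also lost in limma on log2(RPKM + 1) (adjusted p = 0.0847) and on log2(RPKM + 0.1) (adjusted p = 0.083). Among 30 Polycomb, Trithorax and related chromatin genes tested, 5 were called higher and 7 lower, against 19.9% and 19.6% of all genes tested. The median log2 value of the 30 was -0.02. The histone methyltransferases KMT2A (log2 -0.60, SE 0.07, edgeR adjusted p = 4.03e-05) and KMT2D (log2 -0.56, SE 0.08, edgeR adjusted p = 9.09e-05), which write activating marks, were lower. KDM6B, which removes the Polycomb mark, was also lower (log2 -0.82, SE 0.11, edgeR adjusted p = 5.85e-05). PCGF2, a Polycomb subunit, was higher (log2 0.62, SE 0.08, edgeR adjusted p = 5.83e-05).

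Retinoic acid is a classical inducer of HOX genes. Of 15 genes of this pathway tested, 5 were called higher and 3 lower, against 19.9% and 19.6% of all genes tested. The median log2 value of the 15 was -0.19. ALDH1A2, which makes retinoic acid, had 18, 13 and 27 counts in shCtrl and 165, 165 and 167 counts in shMORC2 (log2 3.07, SE 0.24, edgeR adjusted p = 1.38e-06). CRABP2, which carries it to its receptors, was higher (log2 1.12, SE 0.11, edgeR adjusted p = 6.37e-06). The receptor RARG (log2 -1.10, SE 0.10, edgeR adjusted p = 5.17e-06) and CYP26B1, which degrades retinoic acid (log2 -1.15, SE 0.22, edgeR adjusted p = 0.00118), were lower.

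The relatives of the HOX genes outside the clusters are the other ANTP-class homeobox genes. Of 54 examined, 26 had enough counts to be tested, with a median log2 value of 0.19. Of the 26, 8 were called higher and 2 lower, against 19.9% and 19.6% of all genes tested. EMX2, a gene of the cerebral cortex and the urogenital tract, had 0, 0 and 2 counts in shCtrl and 40, 24 and 26 counts in shMORC2 (edgeR adjusted p = 8.53e-05). TLX2 had 6, 5 and 0 counts in shCtrl and 41, 31 and 41 counts in shMORC2 (edgeR adjusted p = 0.000347). DLX3, a gene of teeth and skin appendages, rose 4.47-fold (log2 2.16, SE 0.18, edgeR adjusted p = 1.74e-06), and TLX1, needed for the spleen, rose 4.04-fold (log2 2.02, SE 0.25, edgeR adjusted p = 4.18e-05).

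The clusters also contain microRNA genes whose known targets include HOX messengers, and these were examined after the gene values had been seen. The mature sequences come from RefSeq on GRCh38.p14, with the seed, bases 2 to 8, in capitals. The 2 members of the miR-196 family share a seed. miR-196a-5p is made from MIR196A2 in HOXC and MIR196A1 in HOXB and miR-196b-5p from MIR196B in HOXA.
miR-196a-5p: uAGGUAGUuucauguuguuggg
miR-196b-5p: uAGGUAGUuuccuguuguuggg

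Mature microRNAs were not measured, and the counts on their precursor genes were low. MIR196A1 had 11, 6 and 7 counts in shCtrl and 11, 7 and 4 counts in shMORC2, and MIR196A2 had 8, 3 and 3 counts in shCtrl and 2, 3 and 2 counts in shMORC2. The site that pairs with the miR-196 seed, ACTACCT, was searched in the 3′ UTRs of the GENCODE release 44 reference transcripts. It occurs in 8 of 39 HOX genes (20.5%) and in 6.98% of all 19061 UTRs, which were of similar median length at 905 and 1059 bases.

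The 8 genes are HOXA5, HOXA7, HOXA9, HOXB1, HOXB6, HOXB7, HOXB13 and HOXC8. Of the 7 tested among them, 4 were called higher, with a median log2 value of 0.63. Of the 29 tested HOX genes without a site, 14 were called higher, with a median of 0.30. The share called higher over all genes tested was 19.9%. HOXA7, among the called genes with a site, cannot be told apart from HOXA-AS3, as given above. The other families made in the clusters had fewer sites. The site of miR-10, ACAGGGT, occurs in 3 HOX genes (7.69%, against 12.5% of all UTRs), with a median log2 value of 0.18 in these. The site of miR-615-3p, GGCTCGG, occurs in 2 (5.13%, against 2.55%), with a median of 0.12.

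Shown next, on the strand of the gene, are the sites of HOXA7, which holds the most, and of HOXB7, as 22-base windows with the seed match in capitals, and the best match in HOXB8, the neighbour of HOXB7. HOXA7 holds 4 sites, at chr7:27154600-27154621, chr7:27154563-27154584, chr7:27154448-27154469 and chr7:27154430-27154451, all on the minus strand. The HOXB7 site lies at chr17:48607614-48607635, minus strand.
HOXA7 site 1: ggcgcgtccaaaatACTACCTa
HOXA7 site 2: cgaggcacccccaaACTACCTa
HOXA7 site 3: aagtgaatctcactACTACCTa
HOXA7 site 4: cctactcccctaaaACTACCTa
HOXB7 site: aacactgaaaaaatACTACCTa
HOXB8 site: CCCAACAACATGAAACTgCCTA

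In HOXB8 the capitals mark the bases that form Watson-Crick pairs with miR-196a-5p. The window at chr17:48612770-48612791, minus strand, matches the full complement in 21 of 22 bases, with the difference A18G counted from the 5′ end of the complement. That base lies in the seed match, so HOXB8 is not among the 8 genes above. It faces a U of the microRNA, and G-U pairs were not counted as matches. Of 18696 UTRs long enough to compare, HOXB8 was the only one with at least 18 matching bases. HOXB8 rose 1.5-fold and HOXB7 1.55-fold, as given above, and no link between the sites and the changes was tested.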

How the data were processed

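Bulk mRNA-seq of 3 shCtrl and 3 shMORC2 libraries of SW480 cells was used. The authors deposited raw counts per gene and, separately, RPKM per gene. The submitters' notes name Trimmomatic 0.36, STAR 2.5.3a, featureCounts of Subread 1.5.1, edgeR 3.12.1 and GRCh38. The annotation release, the strand setting and the treatment of molecular identifiers are not given in the sources used here. Deposited tables of splicing events hold the authors' own comparison and were not used. Results for some genes are not reported here. The members and gene lists were chosen with earlier results of these data known.

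Counts were filtered with filterByExpr, scaled by TMM and tested over all genes with edgeR 4.0.16 (glmQLFit, glmQLFTest, group only) in R 4.3.3, with Benjamini-Hochberg adjustment and a threshold of 0.05. The SE is the absolute log2 fold change divided by the square root of F. CPM uses the scaled library sizes, and RPKM was used to compare levels between genes. Alternatives were DESeq2 1.42.0, no TMM, no filter, at least 10 counts in 3 libraries, the replicate number as a block, limma 3.58.1 on log2(RPKM + 1) or log2(RPKM + 0.1) for genes of mean RPKM of 0.1 or more, and leaving out each library. The edgeR fit was tested on simulated counts. Depth was 42092664 to 43434425 counts a library, and counting intervals cover counting error only.

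Tested HOX genes averaging 20 counts a library or more were given full statistics, the others counts. Of each related list at most 4 called genes with the largest change were named, and of flanking genes the nearest tested on each side and those called with a log2 change of at least 1. RP11-834C11.14, HOXA-AS3 and the other partners were named because they share exons with a HOX gene. HOXB-AS2, HOXC-AS2, the microRNA genes and PTPRC were named after their values were seen.

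The replicate numbers come from the sample titles, which do not say what a number marks. Deviations from the group means of same-numbered shCtrl and shMORC2 libraries correlated at 0.215, 0.111 and 0.102 for numbers 1, 2 and 3. All were above 0.1, so the numbers were taken to pair the libraries. The main counts come from the fit without the block, and blocked values are given for HOX genes whose call changed. With the block, the noncoding list had 10 higher and 2 lower, the chromatin list 5 and 9, and the retinoic acid list 5 and 6. The other ANTP-class genes had 9 and 4, the other genes inside the clusters 19 and 2, and the flanking genes 20 and 5. Over all genes tested the block called 24.4% higher and 24.5% lower.

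Promoters and mature microRNAs were read from RefSeq tables on GRCh38.p14, and 3′ UTRs of MANE Select transcripts from GENCODE release 44 on GRCh38. The UTRs of 39 of 39 HOX genes overlapped the deposited gene on the same strand.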

Additional observations from a re-analysis of the deposited data

How the results depend on the processing

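Every called HOX gene kept its direction in the 13 alternative fits, and 13 of the 19 kept their call in each of them; HOXD3, too low for both limma fits, kept it in the other 11. Leaving out 1 library at a time gave 16 to 18 HOX genes called, 15 to 17 higher and 1 lower, with 6268 to 8433 calls over all genes and a MORC2 log2 fold change of -0.74 to -0.55. Among HOX genes called lower, the count was 2 in both limma fits on RPKM and 3 with the replicate block. The block called 24 HOX genes (21 higher) and 10287 genes in all. Restricting the count to the 13 tested members that share no exonic base gave 9 called, 9 higher and 0 lower, and to the 19 that share under 10% of exonic bases, an alternative chosen after seeing the data, 12 called and 11 higher; fewer genes enter these counts by construction. With a log2 change of 1 or more required, 5 were called, 5 higher and 0 lower. HOXA13 lost its call in 11 of 13 fits, among them DESeq2 (adjusted p = 0.126), and HOXC10 in both limma fits.

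Signs changed only for genes without a call whose groups overlapped. Over the fits that leave out 1 library, the log2 value ran from -0.36 to 0.098 for HOXA2 (positive without shCtrl replicate 3), from -0.058 to 0.075 for HOXB4 (negative without shCtrl replicate 1), from -0.079 to 0.027 for HOXB5 (positive without shCtrl replicate 2) and from -0.13 to 0.0036 for HOXC8 (positive without shMORC2 replicate 3). For HOXC11 it ran from -0.088 to 0.18, and was negative without shCtrl replicate 1 or 3 and without shMORC2 replicate 1 or 3. Of the other values for single HOX genes, 421 kept their side of the threshold, 12 in 6 genes passed it and 23 in 5 genes lost it. Depth limits HOXB1, HOXD1, HOXD3, HOXD4 and HOXD12, where a few counts per library decide the value.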
